A study of Mus musculus with 32 samples.

Results

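Cholesterol synthesis was followed across cultured mouse islets through 28 genes, which comprised the enzymes from acetyl-CoA to cholesterol, the branch to longer prenyl chains, the transcription factor SREBP2 (Srebf2) with its regulators, and the sterol transfer gene Stard4. The members were chosen by symbol from a pathway list, with earlier results of these data known. All 28 were found among the 36595 genes of the deposited table and passed the filter on low counts that left 16428 genes. The libraries were 8 of hIAPP islets at 16.7 mM glucose, 8 of mIAPP islets at 16.7 mM, 8 of hIAPP islets at 11.1 mM and 8 of mIAPP islets at 11.1 mM. The hIAPP mice carried human islet amyloid polypeptide in place of the mouse Iapp locus, and mIAPP mice were wild-type littermates with the mouse gene. Both were on a C57BL/6NHsd background, 10 weeks old and of both sexes. All islets recovered overnight at 11.1 mM glucose and were then kept for 48 h at either level. The labels describe 8 sets of experiments, each with all 4 groups, and libraries whose titles share a replicate number and an RNA code were taken as 1 set; the number of animals behind a set is not given in the sources used here.

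Cells make cholesterol from acetyl-CoA through mevalonate, farnesyl diphosphate, squalene and lanosterol, and farnesyl diphosphate is also drawn off for geranylgeranyl groups and for dolichol. SREBP2 is held in the endoplasmic reticulum with its escort Scap and the INSIG proteins when sterols are plentiful; when they fall, it is carried to the Golgi, cleaved, and its freed part switches on genes for sterol synthesis and uptake. In beta cells cholesterol is a constituent of the plasma membrane and of insulin granules. The series title concerns the sterol carrier StAR and islet amyloid, which human and not mouse IAPP forms.

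Library totals were 16.1 to 43.7 M estimated counts. The replaced gene Iapp spanned 9764 to 11583 TMM-scaled CPM (counts relative to library size after trimmed-mean scaling, the unit of every level below) in hIAPP libraries and 16864 to 30408 in mIAPP libraries at 16.7 mM, with no overlap. Its medians in hIAPP and mIAPP libraries were 11090 and 24438 CPM at 16.7 mM, and 6678 and 11685 CPM at 11.1 mM. Counts for the mouse gene thus remained in hIAPP libraries, and which transcripts they came from was not tested. Mitochondrially encoded genes took 2.68 to 6.76% of counts in hIAPP libraries at 16.7 mM and 2.84 to 37% in mIAPP libraries at 16.7 mM, the highest being set 7. At 11.1 mM they took 5.23 to 27.2% in hIAPP and 3.49 to 34.7% in mIAPP libraries. Libraries under 10% numbered 8, 5, 2 and 3 in those 4 groups, so only sets 3 and 4 were under 10% in every group. Beta cell markers summed to at least 132501 CPM in every library and acinar markers to at most 185 CPM. With hIAPP at 16.7 mM, 5 of 7 beta cell, 5 of 7 endothelial and 12 of 13 mitochondrially encoded genes were lower than with mIAPP, 1 of 2 lymphocyte markers was lower, 2 of 7 macrophage markers were higher, and 0 of 5 alpha cell, 4 delta and PP cell, 6 acinar and 6 stellate and fibroblast markers passed in either direction. Of 4 ductal markers 1 was higher, the keratin gene Krt7 (log2 0.62 ± 0.11, adjusted p = 0.000298; interaction 0.69 ± 0.16, adjusted p = 0.0103), and the ductal markers summed to 412 to 712 CPM in hIAPP islets and 294 to 392 CPM in mIAPP islets at 16.7 mM, without overlap. The part of the cell type markers, ductal ones included, in the results below was not tested. In whole islets, fewer cells of a type and less RNA per cell cannot be told apart. Y-linked genes summed to between 8.15 and 178 CPM, so the mix of male and female islets differed between libraries.

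At 16.7 mM glucose, 16 of the 28 genes were higher in hIAPP than in mIAPP islets and 0 were lower, by edgeR's quasi-likelihood test at a p under 0.05 after Benjamini-Hochberg adjustment over all genes tested. Over all genes tested, 9.27% were called higher and 11.2% lower. The median log2 fold change was 0.43 over the 28 genes and -0.01 over all genes tested. Within sets, 15 of the 28 were higher in hIAPP islets in all 8 sets, a count for which the share of all genes tested was not computed. For 10 of them every hIAPP library lay above every mIAPP library, a separation found for 2.39% of all genes tested in that direction and for 0.584% in the other. By step of the pathway, 9 of 12 squalene and sterol ring enzymes, 3 of 5 enzymes from mevalonate to farnesyl diphosphate and 0 of 3 prenyl branch genes passed. These proportions were not tested against each other.

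**Figure D1:**
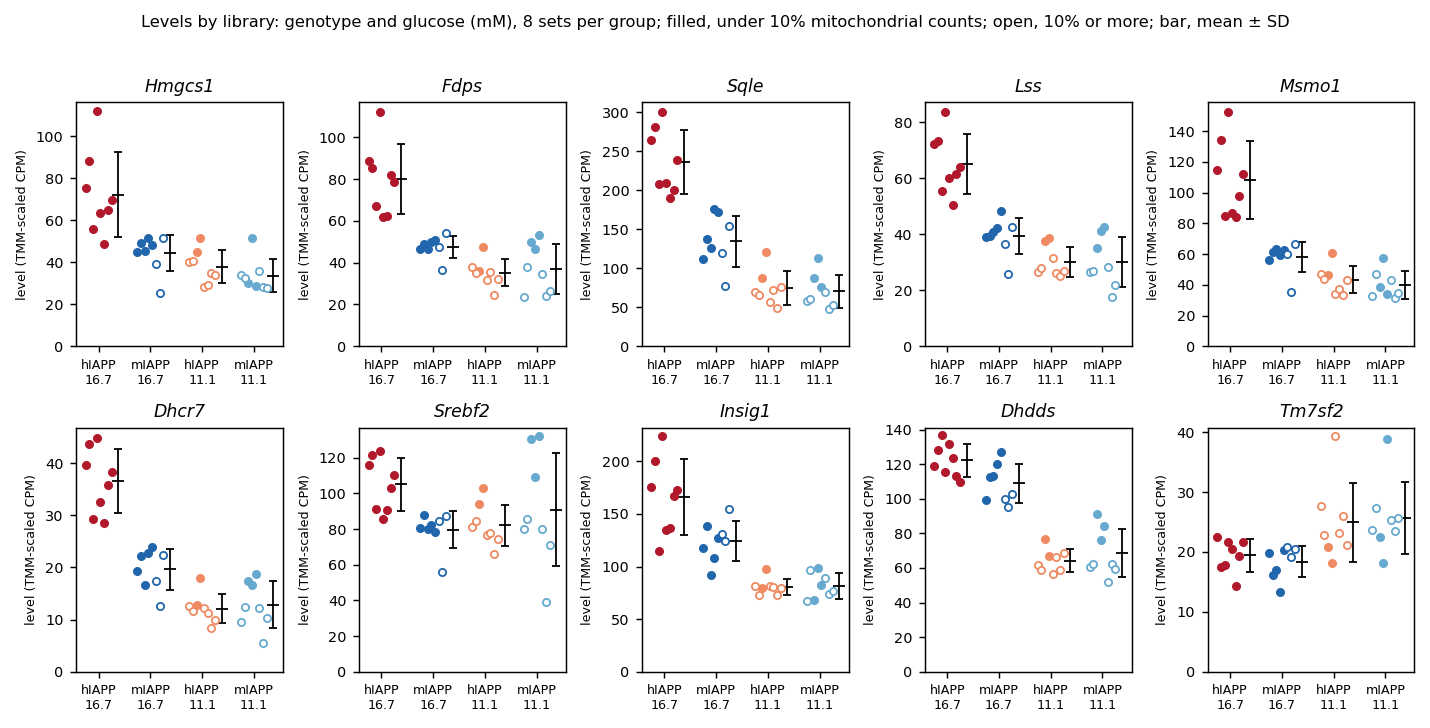
Level of 10 genes in each library (TMM-scaled CPM, linear axis from 0) for hIAPP and mIAPP islets at 16.7 and 11.1 mM glucose, with points in order of set 1 to 8, filled where mitochondrial counts were under 10%, and a bar for the mean ± SD (n = 8). For Fdps, Sqle, Lss, Msmo1 and Dhcr7 every hIAPP library at 16.7 mM lay above every mIAPP library at 16.7 mM, whereas Tm7sf2 overlapped in all groups.

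The first steps join acetyl-CoA units. Hmgcs1 (ENSMUSG00000093930, GRCm38 chr13:119690379-119708260), the cytosolic HMG-CoA synthase, had a lowest, median and highest level of 48.5, 67.3 and 112 CPM in hIAPP islets at 16.7 mM, against 25.3, 46.8 and 51.5 CPM in mIAPP islets at 16.7 mM. Its log2 fold change was 0.68 ± 0.12 (SE; adjusted p = 0.000176), it was higher in 8 of 8 sets, and the groups overlapped at their edge. At 11.1 mM the same gene stood at 28.1, 37.5 and 51.6 CPM in hIAPP islets and 28, 31.3 and 51.3 CPM in mIAPP islets. The thiolases did not pass at 16.7 mM: mitochondrial Acat1 averaged 72.4 ± 2.51 CPM in hIAPP and 73.1 ± 6.19 CPM in mIAPP islets (SD, n = 8 each), a log2 difference of -0.01 ± 0.07 (adjusted p = 0.956). Cytosolic Acat2 averaged 9.79 ± 1.36 and 8.77 ± 1.12 CPM in hIAPP and mIAPP islets, a log2 difference of 0.16 ± 0.11 (adjusted p = 0.286).

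Of the enzymes that turn mevalonate into farnesyl diphosphate, Pmvk, Idi1 and Fdps rose in hIAPP islets at 16.7 mM, and Mvk and Mvd did not pass. Idi1, which interconverts the isoprene units isopentenyl and dimethylallyl diphosphate, stood at 20.7, 26.9 and 42.2 CPM (lowest, median and highest) in hIAPP islets, against 5.67, 16.1 and 19.3 CPM in mIAPP islets. No Idi1 library overlapped between the genotypes, and the log2 fold change was 0.89 ± 0.18 (adjusted p = 0.0011). Fdps, the farnesyl diphosphate synthase at the point where the sterol and prenyl routes part, had 62.0, 80.4 and 112 CPM in hIAPP islets and 36.5, 48.3 and 54.0 CPM in mIAPP islets. These Fdps values did not overlap either, and the log2 fold change was 0.75 ± 0.14 (adjusted p = 0.000412). Pmvk, phosphomevalonate kinase, had 44.9, 54.9 and 76.3 CPM in hIAPP and 28, 39.2 and 69.6 CPM in mIAPP islets, with wide overlap. Its log2 fold change was 0.45 ± 0.14 (adjusted p = 0.0275). Mvk, mevalonate kinase, ranged from 7.76 to 10.1 CPM in hIAPP and 6.40 to 14.6 CPM in mIAPP islets. Mvk differed by -0.02 ± 0.15 (adjusted p = 0.929) and Mvd, the decarboxylase, by 0.08 ± 0.13 (adjusted p = 0.688). The mIAPP library of set 7 was the highest mIAPP library for both Pmvk and Mvd.

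In the prenyl branch 0 of 3 genes passed at 16.7 mM, by edgeR as by DESeq2 and limma voom, and Dhdds alone had an unadjusted p under 0.05. Ggps1, geranylgeranyl diphosphate synthase, averaged 33.8 ± 1.63 CPM in hIAPP and 31.9 ± 2.93 CPM in mIAPP islets at 16.7 mM, a log2 difference of 0.08 ± 0.09 (adjusted p = 0.517). Dhdds and Nus1, the subunits of the enzyme that builds the dolichol chain, differed by 0.17 ± 0.08 (adjusted p = 0.119) and 0.12 ± 0.10 (adjusted p = 0.388). A difference between these genes and Fdps was not tested.

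Of the 12 squalene and sterol ring enzymes 9 rose in hIAPP islets at 16.7 mM. They were Fdft1 (squalene synthase), Sqle (squalene epoxidase), Lss (lanosterol synthase), Cyp51 (lanosterol demethylase), Msmo1, Nsdhl and Hsd17b7 (the oxidase, dehydrogenase and ketoreductase that strip methyl groups from the ring), Sc5d (a sterol desaturase) and Dhcr7 (the reductase that yields cholesterol from its dehydro precursor). Sqle had 190, 224 and 300.2 CPM (lowest, median and highest) in hIAPP islets, against 77.5, 132 and 176 CPM in mIAPP islets. The Sqle ranges were separate, with a log2 fold change of 0.84 ± 0.12 and an adjusted p of 1.68e-05. Msmo1 had 84.1, 105 and 153 CPM in hIAPP islets and 35.5, 60.8 and 66.6 CPM in mIAPP islets. It too separated the genotypes, with a log2 fold change of 0.88 ± 0.11 (adjusted p = 1.56e-06). Dhcr7 had 28.4, 37.1 and 44.8 CPM in hIAPP islets, against 12.6, 20.7 and 23.9 CPM in mIAPP islets, again apart. The Dhcr7 log2 fold change was 0.92 ± 0.14 (adjusted p = 4.41e-05).

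Lss had 50.5, 62.7 and 83.7 CPM in hIAPP islets at 16.7 mM, against 25.7, 40.1 and 48.3 CPM in mIAPP islets, and Cyp51 had 66.0, 73.7 and 114 CPM in hIAPP against 38.5, 54.6 and 60.5 CPM in mIAPP islets. Both pairs of ranges were separate, and the log2 fold changes were 0.74 ± 0.11 for Lss and 0.59 ± 0.09 for Cyp51. Hsd17b7 showed the largest fold of the 28, 2.05-fold (log2 1.04 ± 0.24, adjusted p = 0.00433), on the thinnest counts, with between 6 and 540 estimated counts per library. It had 6.59, 8.88 and 12.0 CPM in hIAPP islets and 2.19, 4.67 and 5.58 CPM in mIAPP islets. Nsdhl ranged from 9.17 to 15.4 CPM in hIAPP and 5.27 to 8.08 CPM in mIAPP islets (log2 0.63 ± 0.13), and Fdft1 from 55.9 to 104 CPM in hIAPP and 42.7 to 48.5 CPM in mIAPP islets (log2 0.58 ± 0.10), both without overlap. Sc5d did overlap, at 32.8 to 42.6 CPM in hIAPP and 14.3 to 34 CPM in mIAPP islets (log2 0.43 ± 0.13).

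Not every ring enzyme passed. Ebp, the sterol isomerase, was higher in hIAPP islets in 8 of 8 sets but by 0.18 ± 0.07 (adjusted p = 0.0723), at 31.9 ± 2.17 CPM in hIAPP and 28.1 ± 1.5 CPM in mIAPP islets (SD, n = 8 each). It passed with DESeq2 and limma voom. Tm7sf2 and Lbr, a pair of reductases for the same ring double bond, differed by 0.09 ± 0.11 (adjusted p = 0.569) and 0.20 ± 0.16 (adjusted p = 0.384). Lbr is also an inner nuclear membrane protein that binds lamin B.

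Of SREBP2 and its 3 regulators, Srebf2 and Insig1 rose at 16.7 mM. Srebf2 had 85.6, 107 and 124 CPM (lowest, median and highest) in hIAPP islets at 16.7 mM, against 55.8, 81.5 and 88.0 CPM in mIAPP islets, a log2 fold change of 0.42 ± 0.13 (adjusted p = 0.031) with a slight overlap. Insig1, which retains SREBP2 in the endoplasmic reticulum and is itself a SREBP2 target, had 115, 169.9 and 224 CPM in hIAPP islets and 91.8, 126 and 154 CPM in mIAPP islets. Its log2 fold change was 0.40 ± 0.10 (adjusted p = 0.00589). For Insig2 the hIAPP libraries lay close together at 37.9 to 47.9 CPM, whereas the mIAPP libraries spread over 13.7 to 48.0 CPM. Scap, the escort, differed by 0.16 ± 0.08 (adjusted p = 0.142), and Insig2, the second retention gene, by 0.42 ± 0.18 (adjusted p = 0.0989). Stard4, a soluble sterol transfer protein, had 12.6, 16 and 23.2 CPM in hIAPP and 6.92, 12.7 and 14.3 CPM in mIAPP islets, a log2 fold change of 0.56 ± 0.16 (adjusted p = 0.0136), higher in 7 of 8 sets.

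At 11.1 mM glucose 0 of the 28 genes passed in either direction, where 0.11% of all genes tested were called higher and 0.0183% lower by edgeR's quasi-likelihood test (1121 genes at an unadjusted p under 0.05). Of the 28, 3 had an unadjusted p under 0.05 (Acat2, Nus1 and Scap), and DESeq2 and limma voom also called 0. The members' log2 fold changes ran from -0.22 to 0.30 with a median of 0.04, and the genotypes overlapped for every member, where 0.0791% of all genes tested were higher and 0.0122% lower without overlap. Sqle had 48.5, 70.7 and 121 CPM in hIAPP islets at 11.1 mM, against 47.4, 65.1 and 113 CPM in mIAPP islets at 11.1 mM. Scap had a log2 difference of -0.22 ± 0.08 and was higher in hIAPP islets in 1 of 8 sets, and Acat2 differed by -0.22 ± 0.11 and was higher in 0 of 8, both short of the threshold (adjusted p = 0.722 and 0.731).

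**Figure D2:**
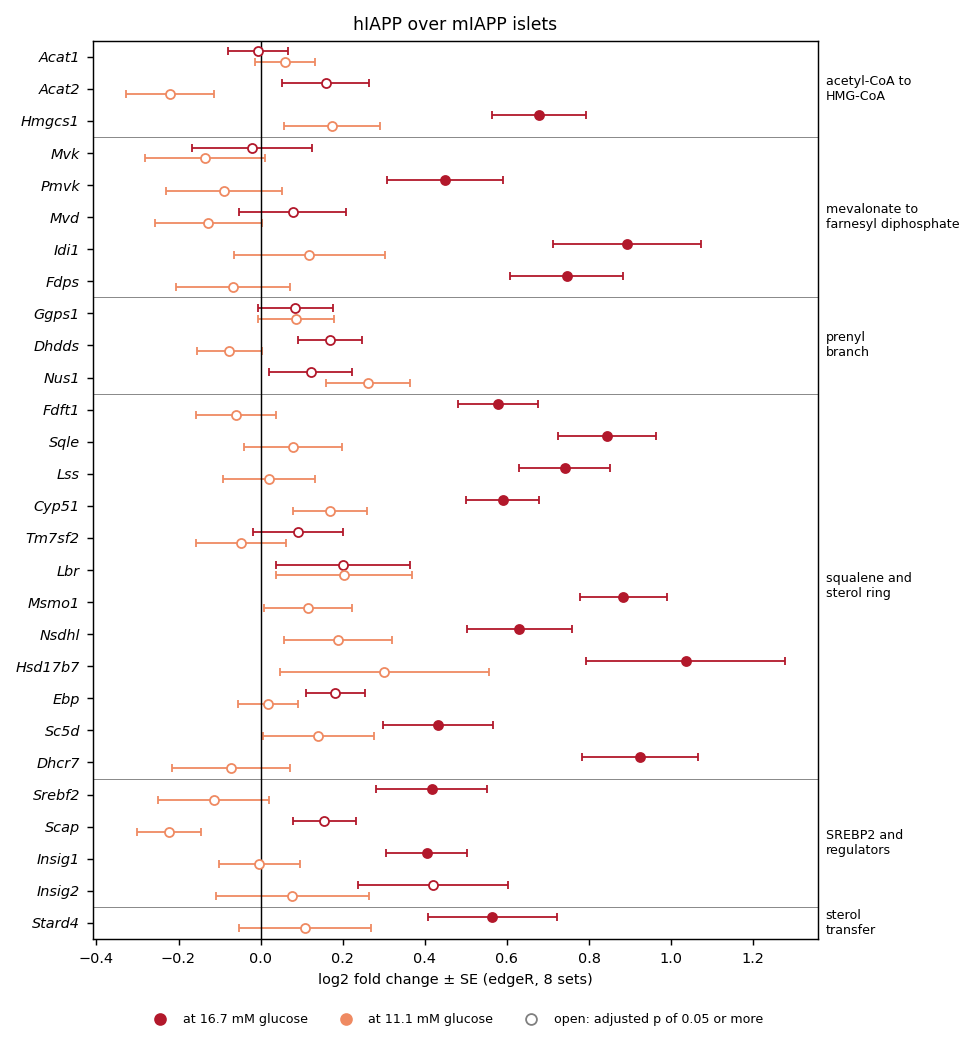
Log2 fold change of hIAPP over mIAPP islets with its SE (x axis) for the 28 genes by step of the pathway, at 16.7 mM glucose (dark) and 11.1 mM (light); filled points passed an adjusted p of 0.05. At 16.7 mM 16 points are filled, all right of 0, and at 11.1 mM none of the 28 is.

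The change at 16.7 mM was not of one size across sets. Sqle, for example, differed within sets by between 0.28 (set 5) and 1.37 (set 7) on the log2 scale. Set 7 paired an hIAPP library with 6.51% mitochondrial counts with an mIAPP library with 37%, and set 4 paired 2.77% with 2.84%. In set 4, where the mitochondrial shares were alike, 21 of the 28 genes were higher in the hIAPP library with a median log2 difference of 0.73. In set 3, at 3.44% in hIAPP and 5.06% in mIAPP, it was 22 of 28 with a median of 0.27. Restricted to libraries under 10% mitochondrial counts, 14 of the 16 calls held, all but Pmvk and Sc5d (0.60 and 0.35, adjusted p = 0.0815 and 0.107). With the log2 mitochondrial share as a covariate 9 held: Hmgcs1, Pmvk, Fdft1, Sqle, Lss, Cyp51, Msmo1, Nsdhl and Dhcr7. Of the 7 that were lost under that covariate, Idi1, Hsd17b7, Fdps and Insig1 were at 0.71, 0.73, 0.53 and 0.37 (adjusted p = 0.0637, 0.191, 0.0525 and 0.0927). Sc5d, Srebf2 and Stard4 were at 0.11, 0.15 and 0.21 (adjusted p = 0.82, 0.771 and 0.671). With the set 7 library of mIAPP islets at 16.7 mM left out, Sc5d was at 0.37 (adjusted p = 0.0726) and Srebf2 at 0.40 (adjusted p = 0.0657), and the other 14 still passed. Leaving out whole sets, Pmvk was lost without set 1, 2, 4 or 8 (lowest value 0.30), Sc5d without set 1, 2, 6 or 7 (0.32), Srebf2 without set 1, 2, 4, 6 or 7 (0.35) and Stard4 without set 1 or 7 (0.49).

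**Figure D3:**
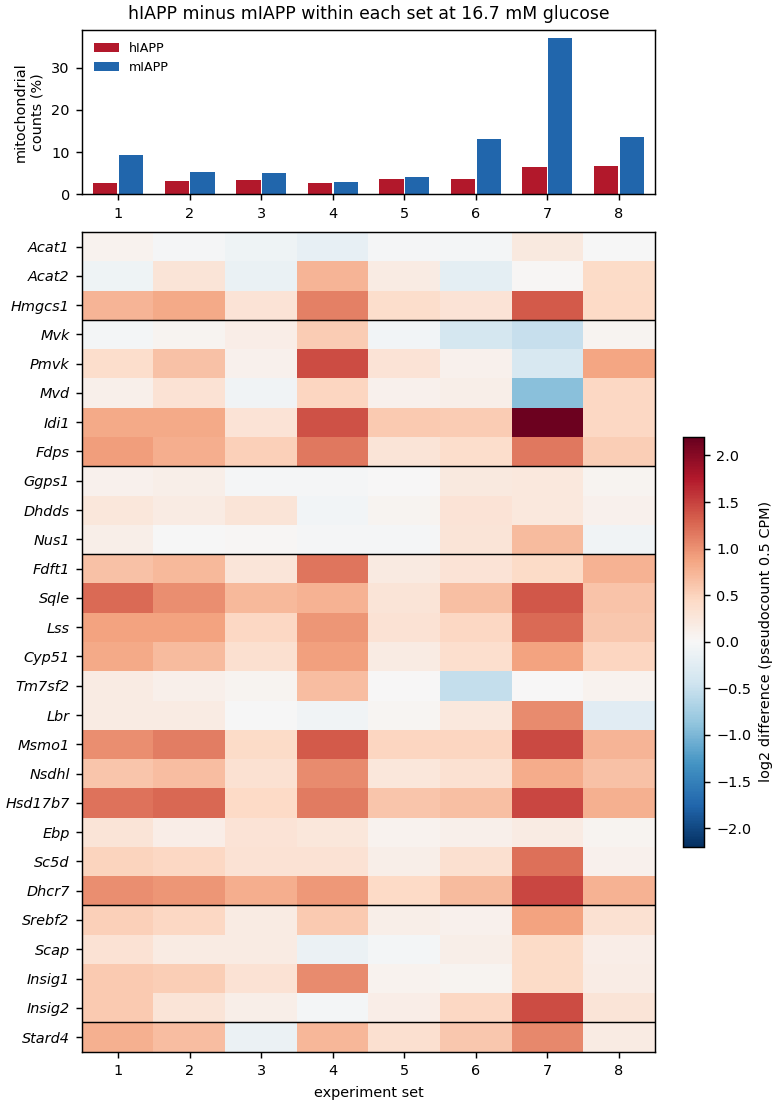
Within-set log2 difference, hIAPP minus mIAPP at 16.7 mM glucose, for the 28 genes (rows, grouped by step) in the 8 sets (columns), below the mitochondrial share of counts in both libraries of each set (%). Sterol ring rows such as Msmo1 and Dhcr7 are red in all 8 columns, the prenyl rows stay pale in most, and set 7, with 37% mitochondrial counts in its mIAPP library, holds the darkest cell (Idi1).

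Most members also rose with glucose in hIAPP islets. Between 16.7 and 11.1 mM, 22 of the 28 were higher at 16.7 mM and 1 was lower, against 32.2% higher and 33.3% lower of all genes tested, so that a call was common in this comparison. The median log2 fold change was 0.86 over the members and -0.02 over all genes tested. In all 8 sets 18 members were higher at 16.7 mM, and for this count the share of all genes tested was not computed. Between glucose levels 15 members did not overlap, all of them higher, as were 14.3% of all genes tested (8.38% were lower without overlap). This comparison shares the hIAPP libraries at 16.7 mM with the genotype comparison at that level. Sqle had 190 to 300.2 CPM at 16.7 mM and 48.5 to 121 CPM at 11.1 mM, a 3.26-fold change (log2 1.71 ± 0.12, adjusted p = 1.55e-11). Dhcr7 followed at 28.4 to 44.8 CPM at 16.7 mM against 8.34 to 18 CPM at 11.1 mM (log2 1.63 ± 0.14, adjusted p = 7.05e-10). Idi1, which stood at 20.7 to 42.2 CPM at 16.7 mM and 6.37 to 18.7 CPM at 11.1 mM, changed 2.59-fold, and Cyp51, at 66.0 to 114 CPM at 16.7 mM and 27.5 to 42.8 CPM at 11.1 mM, changed 2.47-fold. All 4 of SREBP2 and its regulators rose: Insig1 (1.02 ± 0.10), Insig2 (1.14 ± 0.19), Scap (0.30 ± 0.08) and Srebf2 (0.37 ± 0.14). With the mitochondrial share as a covariate Insig1 alone of these 4 still passed, Insig2 was at 0.24, and Scap and Srebf2 changed sign, at -0.016 and -0.087 (adjusted p = 0.533, 0.938 and 0.812). In libraries under 10% mitochondrial counts Insig2, Scap and Srebf2 were at 0.51, 0.22 and 0.11 (adjusted p = 0.0534, 0.269 and 0.649). The members that did not pass were Acat2, Mvk, Mvd, Ggps1 and Lbr, with log2 differences of -0.27 to 0.23.

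In mIAPP islets 16 of the 28 genes were higher at 16.7 than at 11.1 mM and 3 were lower, against 24.9% and 22.7% of all genes tested, with a median of 0.40 over the members. Both glucose levels overlapped for all members but Dhdds and Ebp, while 2.64% of all genes tested were higher and 1.41% lower without overlap. Sqle had 77.5 to 176 CPM at 16.7 mM and 47.4 to 113 CPM at 11.1 mM (log2 0.94 ± 0.12, adjusted p = 6.91e-07). Cyp51 had 38.5 to 60.5 CPM at 16.7 mM and 20.2 to 42.3 CPM at 11.1 mM (log2 0.88 ± 0.09, adjusted p = 2.19e-08). Fdft1 differed by 0.0018 ± 0.097 (adjusted p = 0.99), Srebf2 by -0.16 ± 0.14 (adjusted p = 0.352) and Nsdhl by 0.22 ± 0.13 (adjusted p = 0.161). Several calls in mIAPP islets did not hold when 1 set was left out: Hsd17b7 (0.62 ± 0.25) was lost without set 1, 2, 3, 5, 7 or 8 (lowest 0.41), Fdps (0.39 ± 0.14) without set 1, 2, 7 or 8 (lowest 0.27), and Idi1 (0.60 ± 0.18) without set 8 (0.43).

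Some members passed for glucose in both genotypes and not for genotype. Dhdds had 110 to 137 CPM at 16.7 mM and 56.8 to 76.8 CPM at 11.1 mM in hIAPP islets, and 95.5 to 127 CPM at 16.7 mM and 52.1 to 91.4 CPM at 11.1 mM in mIAPP islets. The log2 fold change of Dhdds with glucose was 0.92 ± 0.08 in hIAPP islets, at an adjusted p of 3.49e-10. In mIAPP islets it was 0.68 ± 0.08, at an adjusted p of 1.53e-07. Its partner subunit Nus1 rose by 0.63 ± 0.10 in hIAPP and 0.77 ± 0.10 in mIAPP islets, and Ebp by 0.94 ± 0.07 and 0.78 ± 0.07 in hIAPP and mIAPP islets. Tm7sf2 went the other way: it fell by 0.32 ± 0.11 with glucose in hIAPP islets, and it fell by 0.46 ± 0.11 in mIAPP islets, at adjusted p values of 0.0117 and 0.00125. Tm7sf2 levels were 14.3 to 22.6 CPM at 16.7 mM against 18.2 to 39.4 CPM at 11.1 mM in hIAPP islets, and 13.3 to 20.8 CPM against 18.1 to 38.8 CPM in mIAPP islets. In mIAPP islets Acat2 changed by -0.35 ± 0.11 (adjusted p = 0.00895) and Mvk by -0.39 ± 0.15 (adjusted p = 0.0324), and Mvk was lost without set 2, 3 or 5 (smallest change -0.28). The lone call in hIAPP islets that fell, Tm7sf2, was at -0.056 with the mitochondrial covariate (adjusted p = 0.867), at -0.11 in libraries under 10% mitochondrial counts (adjusted p = 0.707) and at -0.23 without set 5 (adjusted p = 0.0566). Among the rises there, Acat1 (0.22 ± 0.07) was lost without set 5 or 7 (lowest 0.16), and Srebf2 without set 1, 2 or 8 (lowest 0.33).

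**Figure D4:**
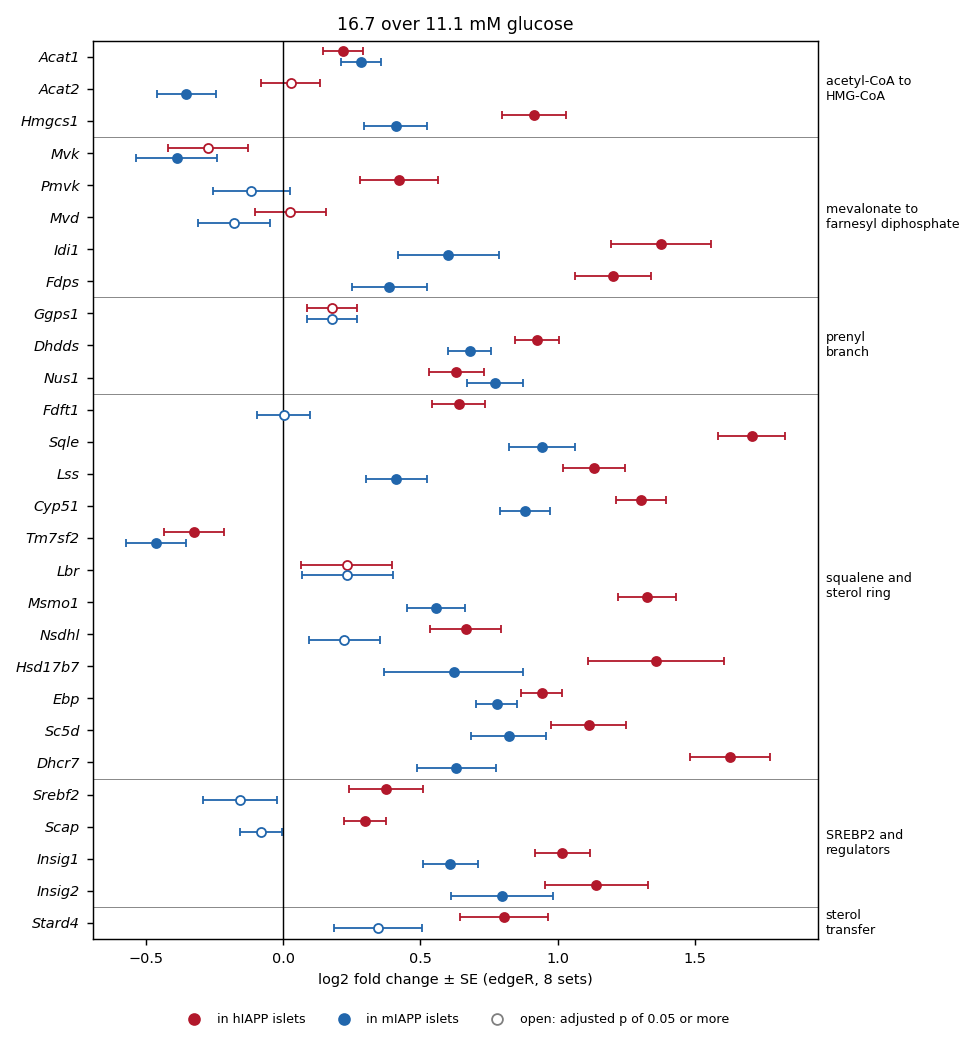
Log2 fold change of 16.7 over 11.1 mM glucose with its SE (x axis) for the 28 genes by step of the pathway, in hIAPP islets (red) and mIAPP islets (blue); filled points passed an adjusted p of 0.05. In most sterol ring rows the hIAPP point lies to the right of the mIAPP point, and Tm7sf2 lies left of 0 in both.

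Mitochondrial shares moved with these glucose contrasts, at a median of 3.50% in hIAPP islets at 16.7 mM against 18.1% at 11.1 mM, and 7.29% against 20.4% in mIAPP islets. In hIAPP islets 13 of 13 mitochondrially encoded genes, 7 of 7 beta cell, 7 of 7 endothelial, 5 of 6 stellate and fibroblast, 4 of 7 macrophage and 2 of 2 lymphocyte markers were lower at 16.7 mM. There 1 of 5 alpha cell markers, Ttr (1.35 ± 0.17), and 1 of 4 ductal markers, Krt7 (0.79 ± 0.11), were higher without overlap, 1 other ductal marker was lower, and 1 of 4 delta and PP cell markers passed in each direction. In mIAPP islets 3 of 13 mitochondrially encoded genes, 3 of 7 beta cell, 5 of 7 endothelial, 2 of 6 stellate and fibroblast, 5 of 7 macrophage, 2 of 2 lymphocyte and 1 of 4 delta and PP cell markers were lower. Of 5 alpha cell markers 1 was higher there (Ttr, 1.40 ± 0.17) and 1 lower. Acinar markers passed in neither genotype. With the mitochondrial share as a covariate 14 of the 22 rises in hIAPP islets still passed, and the lost ones included Hsd17b7, Nsdhl, Nus1, Stard4 and Acat1 at 0.81, 0.52, 0.30, 0.19 and 0.06 (adjusted p = 0.157, 0.0868, 0.169, 0.626 and 0.768). In mIAPP islets 11 of the 16 rises passed with that covariate, and Idi1, Hsd17b7, Hmgcs1, Fdps and Lss were at 0.46, 0.38, 0.30, 0.25 and 0.25 (adjusted p = 0.0923, 0.289, 0.0661, 0.171 and 0.0703). Mvk was then at -0.28 (adjusted p = 0.162), and Scap was called lower (-0.21, adjusted p = 0.0224). Also in mIAPP islets, libraries under 10% mitochondrial counts gave 0.22 for Dhcr7 and 0.11 for Lss (adjusted p = 0.261 and 0.546), and Srebf2 was then called lower (-0.64, adjusted p = 0.00422). Within sets 3 and 4, where all libraries were under 10%, 22 and 26 of the 28 genes were higher at 16.7 mM in hIAPP islets and 18 in each set in mIAPP islets. The median log2 differences in sets 3 and 4 were 0.39 and 0.81 in hIAPP islets, and 0.27 and 0.06 in mIAPP islets. Under upper-quartile scaling the median of all genes moved to -0.16 in hIAPP islets and -0.13 in mIAPP islets. The members called higher and lower numbered 19 and 2 in hIAPP and 14 and 4 in mIAPP islets. The split of all calls then was 4145 higher and 6636 lower in hIAPP islets, against 5294 and 5474 under TMM, and 3191 and 4871 in mIAPP islets, against 4083 and 3722 under TMM. Acat1, Pmvk and Srebf2 in hIAPP islets, and Fdps and Hsd17b7 in mIAPP islets, were no longer called under that scaling.

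The interaction asks whether the glucose response differed between genotypes. It passed for 6 of the 28 genes, all with the larger response in hIAPP islets, where 2.17% of all genes tested were called in that direction and 0.95% in the other. These were Dhcr7 (log2 1.00 ± 0.20, adjusted p = 0.00412), Fdps (0.81 ± 0.19, adjusted p = 0.0175), Msmo1 (0.77 ± 0.15, adjusted p = 0.00327), Sqle (0.76 ± 0.17, adjusted p = 0.00915), Lss (0.72 ± 0.16, adjusted p = 0.00881) and Fdft1 (0.64 ± 0.14, adjusted p = 0.00755). Msmo1, for instance, rose with glucose by 1.33 ± 0.11 in hIAPP islets and 0.56 ± 0.11 in mIAPP islets. Fdps was lost without set 2 (0.80, adjusted p = 0.0628). Without the replicate block, 2 of the 28 passed (Fdft1 and Dhcr7), and with DESeq2 11 did. Fdft1 shares exonic bases with Ctsb, whose values are given further below. With the mitochondrial covariate Fdft1 and Msmo1 still passed, Pmvk was gained, and Dhcr7, Fdps, Sqle and Lss were at 0.66, 0.58, 0.42 and 0.47 (adjusted p = 0.0949, 0.223, 0.163 and 0.156). Among libraries under 10% mitochondrial counts 0 of the 28 passed by edgeR (14 at an unadjusted p under 0.05), with values of 0.64 to 1.07 for the 6 genes.

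The members' promoters were read in the RefSeq table of GRCm38.p6, which spans 250 bases before to 50 after each listed start. It held 29 promoters of 23 members, and Acat1, Fdps, Fdft1, Sqle and Stard4 were not found in it. SREBP2 binds sterol regulatory elements, commonly next to sites for NF-Y and Sp1, so the letters TCACNCCAC, CCAAT and GGGCGG were searched on both strands. The exact sterol element was in 1 of 29 member promoters (Hmgcs1), against 1.24% of all 32851 promoters. With 1 of its 8 fixed letters free to differ, an allowance made after the exact search was seen, it was in 10 of 29 member promoters, against 24.2% of all. CCAAT was in 21 of 29 member promoters and GGGCGG in 24 of 29, against 37.4% and 35.7% of all promoters. All promoters here include those of genes that did not pass the filter on low counts, so these shares are not matched to the members. A match is a string of letters, not a measured binding site. The promoters below are shown for the exact match (Hmgcs1) and for Tm7sf2, a member without a near match that fell with glucose. Also shown are the 3 genes with the smallest p in the genotype comparison at 16.7 mM among those with a near match (Msmo1, Cyp51 and Dhcr7). Idi1, Lss and Sc5d held no near match either, and they rose with glucose in hIAPP islets (log2 1.38, 1.13 and 1.11). Acat2 held near matches and fell with glucose in mIAPP islets (-0.35). Whether such letters go with the response was not tested. Capitals mark letters like the sterol element and CCAAT, or ATTGG where CCAAT lies on the other strand.
Hmgcs1, chr13:119690101-119690400, plus strand: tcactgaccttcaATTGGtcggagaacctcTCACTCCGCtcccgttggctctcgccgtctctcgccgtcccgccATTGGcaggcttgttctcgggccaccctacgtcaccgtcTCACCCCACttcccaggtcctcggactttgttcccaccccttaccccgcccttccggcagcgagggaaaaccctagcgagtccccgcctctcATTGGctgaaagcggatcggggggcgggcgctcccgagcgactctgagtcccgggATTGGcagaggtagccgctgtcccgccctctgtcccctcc
Msmo1, chr8:64733529-64733828, minus strand: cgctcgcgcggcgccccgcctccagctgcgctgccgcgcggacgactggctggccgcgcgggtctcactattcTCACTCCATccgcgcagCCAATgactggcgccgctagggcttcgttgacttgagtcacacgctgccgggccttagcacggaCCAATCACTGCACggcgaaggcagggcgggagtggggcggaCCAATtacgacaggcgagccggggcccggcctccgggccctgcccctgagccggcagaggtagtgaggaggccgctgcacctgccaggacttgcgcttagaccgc
Cyp51, chr5:4104648-4104947, minus strand: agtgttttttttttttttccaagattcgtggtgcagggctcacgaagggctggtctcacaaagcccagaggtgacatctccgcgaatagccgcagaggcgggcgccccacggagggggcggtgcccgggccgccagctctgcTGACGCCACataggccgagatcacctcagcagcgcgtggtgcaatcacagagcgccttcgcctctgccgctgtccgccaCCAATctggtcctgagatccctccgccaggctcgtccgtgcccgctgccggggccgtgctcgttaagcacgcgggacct
Dhcr7, chr7:143823149-143823448, plus strand: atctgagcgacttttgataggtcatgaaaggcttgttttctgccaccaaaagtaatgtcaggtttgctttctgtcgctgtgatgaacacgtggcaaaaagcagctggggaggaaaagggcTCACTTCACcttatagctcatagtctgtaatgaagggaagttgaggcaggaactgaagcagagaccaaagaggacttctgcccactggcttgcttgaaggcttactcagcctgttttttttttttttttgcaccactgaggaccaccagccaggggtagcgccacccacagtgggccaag
Tm7sf2, chr19:6067801-6068100, minus strand: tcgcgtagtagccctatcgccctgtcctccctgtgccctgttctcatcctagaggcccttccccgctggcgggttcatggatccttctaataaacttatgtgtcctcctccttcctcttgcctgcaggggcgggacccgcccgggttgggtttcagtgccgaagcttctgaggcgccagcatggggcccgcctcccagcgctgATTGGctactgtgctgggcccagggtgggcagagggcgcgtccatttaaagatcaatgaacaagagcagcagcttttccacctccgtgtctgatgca

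In Hmgcs1 the exact element starts 137 bases before the transcript start, with CCAAT letters on either side of it. In Msmo1 a near match starting 92 bases before the start overlaps a CCAAT, so the run of capitals holds both. In Cyp51 the near match lies 108 bases before the start and a CCAAT 29 bases before it. The Dhcr7 window is 1 of 3 listed starts; it holds a near match at 130 bases before the start and no CCAAT, and the CCAAT letters of that gene lie in another of its windows. Tm7sf2 holds a CCAAT 47 bases before its start.

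**Figure D5:**
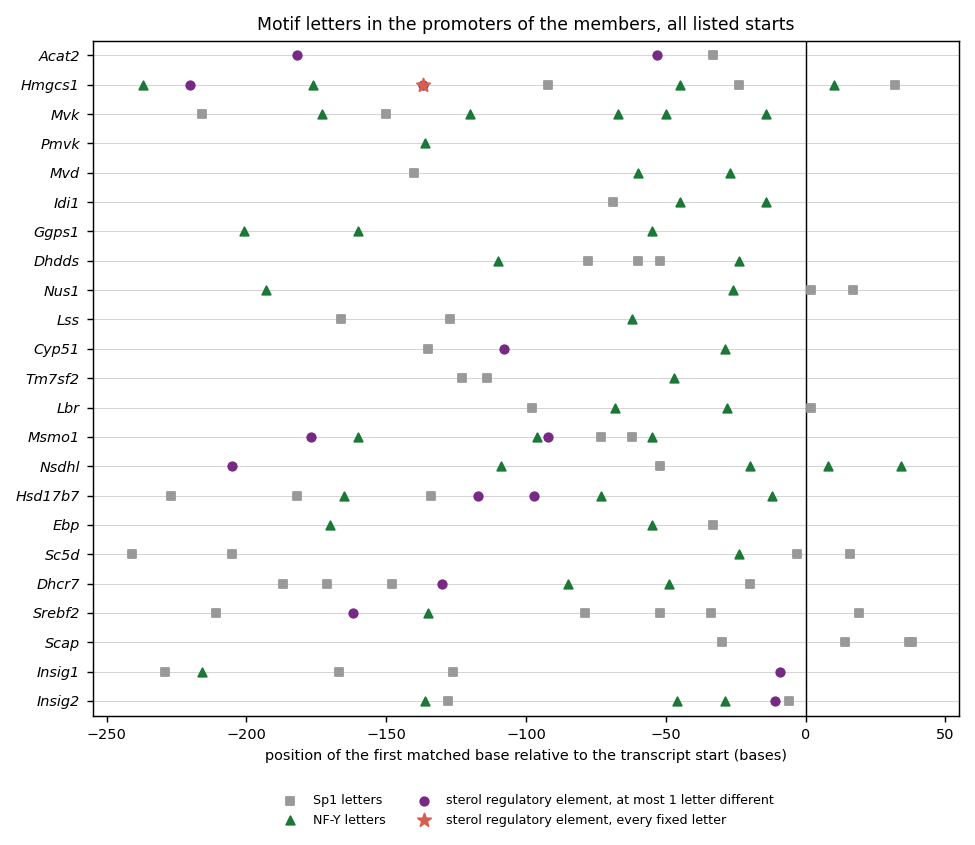
Position of motif letters relative to the transcript start (x axis, bases, first matched base) in the promoters of the 23 members found, with all listed starts of a gene on 1 row; the star is the exact sterol element, circles are matches with at most 1 letter different, triangles CCAAT and squares GGGCGG. The exact element appears in Hmgcs1 alone, and most rows hold both CCAAT and GGGCGG.

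Genes around the members were followed through lists of pathway neighbours, to be read against the 9.27% of all genes tested that were higher and the 11.2% that were lower in hIAPP islets at 16.7 mM. Of 10 other genes reported as SREBP2 targets, 6 were higher and 0 lower in hIAPP islets at 16.7 mM, with a median of 0.46, and the smallest p values belonged to Scd1 and Scd2, the fatty acid desaturases (1.36 ± 0.22 and 1.00 ± 0.20), Acly, which supplies cytosolic acetyl-CoA (0.56 ± 0.09), and Fads2, a polyunsaturated fatty acid desaturase (0.69 ± 0.13). Several of these genes are also SREBP1 targets and were placed in this list alone. The counts of this list and of the SREBP1 list below therefore do not separate the targets of the factors. The interaction passed for Acly (0.58 ± 0.13), Scd1 (1.27 ± 0.31) and Fads2 (0.70 ± 0.19). In the list of fatty acid synthesis under SREBP1, 2 of 9 were higher, Elovl6 (0.36 ± 0.09) and Me1 (0.32 ± 0.10), and 1 was lower, Mlxipl, the gene of the glucose sensor ChREBP (-0.79 ± 0.12). Of 14 genes that process SREBP or degrade sterol-regulated proteins, 2 were higher, Erlin1 (0.64 ± 0.16) and Faf2 (0.24 ± 0.08), which act in degradation at the endoplasmic reticulum. With glucose, 13 of 14 genes of that list were higher at 16.7 mM in hIAPP and 12 of 14 in mIAPP islets, against 32.2% and 24.9% of all genes tested, among them Sar1a, a coat GTPase for export from the endoplasmic reticulum (0.67 ± 0.06 in hIAPP and 0.72 ± 0.06 in mIAPP islets).

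Of 11 genes that use prenyl groups or make coenzyme Q or dolichol products, 0 were higher and 1, Dolpp1 (-0.31 ± 0.09), was lower in hIAPP islets at 16.7 mM. Of 12 sterol efflux and LXR genes 3 were higher and 2 lower; in lists this short, 1 or 2 calls are near the share of all genes tested (9.27% higher and 11.2% lower). Mylip, which targets lipoprotein receptors for degradation, rose by 0.45 ± 0.13 and Nceh1, a cholesteryl ester hydrolase, by 0.32 ± 0.10, while Nr1h2, the LXR beta receptor, changed by -0.46 ± 0.14 and Cyp27a1, a sterol hydroxylase, by -0.87 ± 0.27. The fifth was Lpcat3 (0.32 ± 0.11). At 11.1 mM glucose 0 of the 56 genes of these 5 lists passed in the genotype comparison by edgeR, and 4 had an unadjusted p under 0.05.

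Exons of some members overlap other genes in GENCODE M21. Fdft1 shares 774 exonic bases on the opposite strand with Ctsb, the gene of cathepsin B, which averaged 484 CPM. By edgeR's test Ctsb was itself higher in hIAPP islets at 16.7 mM (0.58 ± 0.11, adjusted p = 0.0005) and with glucose in hIAPP islets (0.45 ± 0.11). In mIAPP islets Ctsb differed with glucose by -0.007 ± 0.11 (adjusted p = 0.961), against 0.0018 ± 0.097 for Fdft1. The Ctsb interaction was 0.46 ± 0.15 (adjusted p = 0.0955), against 0.64 ± 0.14 for Fdft1. The library kit keeps strand, but whether the counting used it is not given in the sources used here, so Fdft1 values are uncertain to that extent. Fdps shares 1124 bases with Gm43738 on the same strand, which averaged 0.24 CPM. Tm7sf2 shares 532 bases with Vps51, which differed with glucose by 0.06 ± 0.08 in hIAPP and -0.11 ± 0.08 in mIAPP islets, neither past the threshold. Cyp51, Ggps1 and Lbr share 166, 257 and 440 bases with genes on the opposite strand. Acat2 has a near copy, Acat3, at a mean of 0.61 CPM.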

How the data were processed

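RNA from cultured islets was enriched for poly(A) RNA and sequenced from directional libraries, per the labels' protocols. Per the submitters' processing notes, bcl2fastq 1.8.4, kallisto 0.45.0 and GRCm38 were used. The authors deposited expected counts per gene, which are estimates by pseudoalignment not scaled to depth and appear as whole numbers; how transcripts were summed is not given in the sources used here. Groups and sets came from the sample titles, and 0 columns were left without a sample.

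Counts were scaled by TMM in edgeR 4.0.16 (R 4.3.3) and filtered with filterByExpr by group. All 32 libraries entered 1 quasi-likelihood fit (glmQLFit, robust; glmQLFTest) of the 4 groups with the set as a block, with 21 residual degrees of freedom. The labels say that each of the 8 sets held the 4 groups, and libraries were paired by the replicate number and RNA code that their titles share, which the labels do not call the set number. After removal of group means, the mean correlation across genes of same-set libraries was 0.17 to 0.36 over the pairs of groups, the lowest was -0.23, and libraries correlated best with their own number in 4 to 6 of 8 cases. Adjusted p values are Benjamini-Hochberg over the 16428 genes tested, with 0.05 as the threshold and no minimum fold. SE comes from the fit and SD from the 8 libraries of a group; within-set differences used a pseudocount of 0.5 CPM. The comparisons share groups, so their values are not independent. Alternatives used DESeq2 1.42.0, limma 3.58.1, other scalings and filters, and subsets of libraries. No columns were identical, and no libraries were merged.

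All 28 members are named; the other pathway genes named are at most 4 past the threshold per list, by smallest p, and Lpcat3 was added after its value was seen. Positions are from GENCODE M21 and promoters from RefSeq. The members and lists were chosen with earlier results of these data known. Whether islets of different sets came from different animals is not stated. The p values measure the spread of libraries left after the group and set terms of the fit, which need not be a spread between animals.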

Additional observations from a re-analysis of the deposited data

Results flagged for a closer look

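In groups of 8 libraries, 21 of 112 member and group combinations held a library far from the nearest other one by Dixon's 95% criterion; chance flags about 1 in 20. The mIAPP library of set 7 at 16.7 mM, with 37% mitochondrial counts, accounted for 12 of them. It was the lowest of its group for Acat1 (59.4 CPM), Hmgcs1 (25.3), Idi1 (5.67), Fdps (36.5), Nus1 (47.1), Msmo1 (35.5), Nsdhl (5.27), Hsd17b7 (2.19), Sc5d (14.3) and Srebf2 (55.8), and the highest for Pmvk (69.6) and Mvd (17.1). Without it, 14 of the 16 members called at 16.7 mM still passed.

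Other outlying libraries were the mIAPP library of set 4 at 11.1 mM, highest for Hmgcs1 (51.3 CPM) and Nus1 (78.1), and the hIAPP library of set 4 at 11.1 mM, highest for Dhcr7 (18) and Insig1 (97.5). The hIAPP library of set 4 at 16.7 mM was highest for Fdft1 (104). At 11.1 mM, set 5 was highest for Tm7sf2 in both hIAPP (39.4) and mIAPP islets (38.8), the hIAPP library of set 7 was highest for Mvd (13.7), and that of set 8 lowest for Nsdhl (4.74).

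The glucose response was called different between hIAPP and mIAPP islets, by the interaction test in edgeR, for Fdps (0.81), Fdft1 (0.64), Sqle (0.76), Lss (0.72), Msmo1 (0.77) and Dhcr7 (1.00 on the log2 scale). Of these, Fdft1 and Msmo1 alone still passed with the mitochondrial covariate. In libraries under 10% mitochondrial counts 0 members passed.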

How the results depend on the processing

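Of the 28 members, 16 were called higher in hIAPP islets at 16.7 mM; the count was 9 with the mitochondrial covariate and 0 with sets 3 and 4 only (chosen after seeing the data, 2 libraries a group). It was 12 without the replicate block (lost were Pmvk, Sc5d, Srebf2 and Stard4), 14 in libraries under 10% mitochondrial counts, 17 with DESeq2 and 17 with limma voom. At 11.1 mM the count was 0 in each alternative run. In hIAPP islets the 22 rises with glucose became 14 with the covariate and 11 with sets 3 and 4; the 1 fall became 2 under upper-quartile scaling or a filter at 5 CPM on average, and 0 with the covariate, in libraries under 10% and with sets 3 and 4. In mIAPP islets the 16 rises and 3 falls became 2 and 0 with sets 3 and 4. The 6 interactions became 2 without the replicate block, 11 with DESeq2, 3 with the covariate, and 0 in libraries under 10% and with sets 3 and 4. Leaving out 1 set at a time gave 12 to 16 rises with genotype at 16.7 mM, 21 to 23 rises and 0 to 2 falls with glucose in hIAPP islets (0 without set 5, 2 without set 3), 13 to 17 rises and 2 to 4 falls in mIAPP islets, and 5 to 9 interactions.

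Over 2660 gene values under the alternatives, 2470 kept their call, 157 were no longer past it, 29 newly passed and 4 called values changed sign. Those 4 were the glucose changes of Scap (-0.016) and Srebf2 (-0.087) in hIAPP islets with the covariate, Tm7sf2 in hIAPP islets with sets 3 and 4 (0.040), and Fdps in mIAPP islets in libraries under 10% (-0.046); the cause was not tested. Among the 2470, 90 differed in sign but passed in neither fit. Over all genes, calls at 16.7 mM numbered 3371, against 1301 without the replicate block, 752 with the covariate, 1133 in libraries under 10%, 61 with sets 3 and 4, and 2108 when the set 7 mIAPP library was dropped. The smaller sets of libraries also leave fewer degrees of freedom. Hsd17b7 rests on as few as 6 counts in a library, which limits its precision.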
